A study of Homo sapiens with 14 samples.

Results

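The mature arms of the miR-21 hairpin, hsa-miR-21-5p and hsa-miR-21-3p (miR-21-5p and miR-21-3p below), were followed by name through 2 tables of raw counts in A549 cells, a human lung adenocarcinoma line. They are 2 of the 2588 mature miRNAs that each table lists, and both arms were counted in all 14 libraries. The libraries belong to 2 assays for N7-methylguanosine (m7G), a guanosine that carries a methyl group, inside small RNA. All RNA was total RNA of A549 cells from which the 5′ caps, which also hold m7G, had been removed. In BoRed-seq, the Red libraries (n = 2) came from RNA reduced with NaBH4 in the presence of free m7GTP and then held at low pH, so that each reduced m7G loses its base. A biotin-coupled probe that reacts with aldehydes (ARP) attaches there, and the RNA is caught on streptavidin. The Ctrl libraries (n = 2) went through the same probe and beads after treatment with NaBH4 that acid had quenched, so they hold RNA kept by the beads without reduction and are not unselected RNA. In m7G-RIP-seq, the IP libraries (n = 5) hold heat-denatured RNA precipitated with an antibody against m7G, and the Input libraries (n = 5) hold the same denatured RNA before precipitation. A549 is a single cell line, and no label says whether the replicates were separate cultures, so p-values measure the spread between these libraries, which may be technical.

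A miRNA hairpin is cut into a short duplex, and either strand can be loaded into an Argonaute protein. The loaded strand is stable and guides the protein to messenger RNAs that pair with its seed, bases 2 to 8, while the other strand is mostly degraded. miR-21-5p is the loaded strand of its duplex in most tissues and is abundant in many tumours, including those of the lung. It represses tumour suppressor messages such as that of PDCD4. miR-21-3p is the passenger strand, found at low levels in most cells.

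The mature sequence of the 5p arm is shown because m7G, which both assays are made to detect, can stand only where there is a guanosine, and that of miR-590-5p because it is the other miRNA in the RefSeq table (GRCh38.p14) with the same seed. That table held no entry for the passenger arm, so its sequence is not shown and its guanosines were not counted. The sequences run 5′ to 3′ and capitals mark the seed.
hsa-miR-21-5p: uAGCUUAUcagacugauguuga
hsa-miR-590-5p: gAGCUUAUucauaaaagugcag

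In this annotation miR-21-5p has 22 bases at chr17:59841273-59841294 on the plus strand and comes from 1 hairpin, MIR21. The 72-base hairpin, at chr17:59841266-59841337, lies inside the last part of VMP1, a gene for a membrane protein of autophagy on the same strand. In the GENCODE 44 annotation it falls in an exon of 10 of the 10 VMP1 transcripts that overlap it, in an untranslated region of 8 of them and in the coding sequence of 0. miR-21-5p holds 5 guanosines (22.7% of its bases), at positions 3, 11, 15, 18 and 21 from the 5′ end. None of them is next to another, whereas 73.7% of the 2370 human mature miRNAs in the table hold at least 1 GG. miR-590-5p, at chr7:74191213-74191234 on the plus strand, is the same as miR-21-5p at 8 of 22 positions, of which the seed makes up 7.

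The libraries held 242085 and 277498 counts in Red, 4678102 and 5874405 in Ctrl, 2854811 to 6452759 in IP and 7097379 to 14874685 in Input. The epithelial miR-200 family, 5 members of which all had counts in every group, made up 193 to 228 ppm in Ctrl (ppm of all mature miRNA counts), 388 to 760 in Red, 342 to 1000 in Input and 170 to 216 in IP. The miR-126 arms, which mark endothelium, stood at 86.7 to 1104 ppm. The blood cell, red cell, muscle and mesenchymal lists stayed at or below 335 ppm and the liver marker miR-122-5p at 0 counts in every library, which allows a share of up to 0.00124% in the smallest. Mesenchymal markers were higher in Red (169 to 335 ppm) than in Ctrl (26.1 to 38.1), as were those of blood cells (20.7 to 72.1 against 1.0 to 1.5) and muscle (41.3 to 43.2 against 0.34 to 3.42), while endothelial markers were lower (86.7 to 209 against 279 to 314). Their part in the results below was not tested. In m7G-RIP-seq, the first principal component (57.1% of the variance) separated IP from Input, and the second (15.3%) separated replicates 1 to 3 from replicates 4 and 5. The labels do not say what sets these replicates apart, so results are also given within each set.

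miR-21-5p was the most abundant miRNA of the RNA before pulldown and of the mock pulldown, and took a much smaller part of both m7G fractions. It made up 79.0% and 80.4% of all mature miRNA counts in the Ctrl libraries and 26.9% and 26.7% in the Red libraries, from 4638480 and 3762274 reads in Ctrl and 65068 and 74009 in Red. It was the most abundant miRNA in both Ctrl libraries and in Red replicate 2, and stood behind let-7a-5p, a let-7 tumour suppressor, in Red replicate 1. In Ctrl it was counted 24.9 and 27.4 times as often as the next miRNA, let-7i-5p, and in Red 0.928 and 1.03 times as often as let-7a-5p. The Red libraries thus sat close to each other and far below both Ctrl libraries, by 52.9 percentage points or 2.98-fold in the mean. An exact two-sided permutation test gave p = 0.333, the smallest value that 2 libraries against 2 allow.

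The share of miR-21-5p in the Input libraries was 40.4%, 46.3%, 45.8%, 38.0% and 41.0% for replicates 1 to 5, from 2868429 to 6462241 reads. In IP it was 4.64%, 4.78%, 5.10%, 6.27% and 6.17%, from 145673 to 404267 reads. Every IP library was below every Input library, by 36.9 percentage points or 7.85-fold in the mean (exact two-sided permutation test, p = 0.00794, the smallest that 5 against 5 allow). Exchange within same-numbered pairs of libraries alone cannot go below an exact p of 0.0625, which this share, that of miR-21-3p and the arm ratio each gave. miR-21-5p ranked first in each Input library, 3.44 to 5.22 times above the next miRNA, miR-100-5p. It ranked between 5th and 7th in IP, at 0.213 to 0.347 times the count of the leading miRNA.

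miR-21-3p was a minor species beside the 5p arm. Its counts were 5168 and 4018 in Ctrl, or 880 and 859 ppm, and 52 and 58 in Red, or 215 (95% Wilson interval, 164 to 282) and 209 (162 to 270) ppm. The difference was 4.10-fold in the mean share (exact permutation test, p = 0.333, the smallest possible). In Input it held 324 to 338 ppm, from 2358, 4641, 4235, 3799 and 4970 counts. In IP it held 26.1, 20.0, 16.1, 16.4 and 13.2 ppm from counts of 127, 106, 46, 106 and 70, so that its mean share was 18.1-fold below Input (exact permutation test, p = 0.00794, the smallest possible). All IP libraries again lay below all Input libraries. Wilson intervals cover counting error only, since the reads carry no molecular identifiers.

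**Figure D1:**
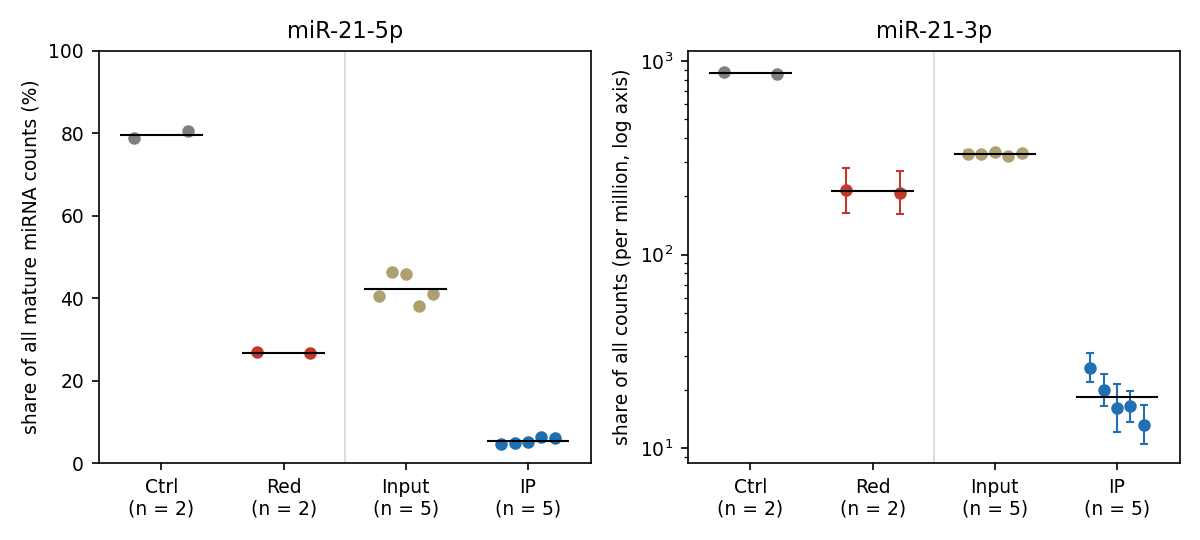
Share of all mature miRNA counts in each library for miR-21-5p (left, percent, linear axis) and miR-21-3p (right, ppm, log axis), with a line at each group mean and 95% Wilson intervals on the right. The shares of miR-21-5p are 79.0% and 80.4% in Ctrl, 26.7% and 26.9% in Red, 38.0% to 46.3% in Input and 4.64% to 6.27% in IP, and both arms are lower in every pulldown library than in every library of its control group.

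Shares of a library are tied to each other, and with miR-21-5p at 79.7% ± 1.03 (SD, n = 2) of Ctrl, a fall of this miRNA lifts the share of all others. Counting miR-21-3p against all counts other than miR-21-5p takes away the tie to the 5p arm only. The passenger arm stays tied to all other miRNAs. On this scale it made up 0.418% and 0.439% in Ctrl and 0.0294% and 0.0285% in Red, and 0.0524% to 0.0624% in Input and 0.00141% to 0.00273% in IP. The groups again did not overlap.

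Both arms were depleted in both assays when all miRNAs were fitted together. Log2 enrichment compares Red with Ctrl, or IP with Input, in counts scaled by median-of-ratios size factors, and was tested with the DESeq2 Wald test over all miRNAs with enough counts. A miRNA was called at a Benjamini-Hochberg adjusted p under 0.05. In BoRed-seq, normalized counts of miR-21-5p were 1283643 and 1398960 in Ctrl and 240971 and 181110 in Red. Its log2 enrichment was -2.67 ± 0.28 (SE; adjusted p = 2.04e-20, DESeq2), a 6.36-fold lower level (95% interval, 4.34 to 9.31). Normalized counts of miR-21-3p were 1430 and 1494 in Ctrl and 193 and 142 in Red, a log2 enrichment of -3.14 ± 0.32 (SE; adjusted p = 3.93e-21, DESeq2) or an 8.83-fold lower level. Depletion was called for 27.2% of the 400 miRNAs tested and enrichment for 32.2%, and both arms of miR-21 were among the depleted. They ranked 51st (5p) and 33rd (3p) from the lowest enrichment.

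In m7G-RIP-seq, normalized counts of miR-21-5p ran from 2769065 to 4104516 in Input and from 298108 to 414512 in IP. The log2 enrichment was -3.32 ± 0.19 (SE; adjusted p = 5.89e-70, DESeq2), a 9.98-fold lower level (95% interval, 7.76 to 12.8). miR-21-3p went from 2361 to 2965 normalized counts in Input to 88.8 to 168 in IP, a log2 enrichment of -4.52 ± 0.21 (SE; adjusted p = 4.46e-104, DESeq2) or a 22.9-fold lower level (17.3 to 30.3). Here 29.9% of 670 tested miRNAs were called depleted and 27.3% enriched. miR-21-5p ranked 41st and miR-21-3p 17th from the lowest.

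The size of the depletion depended on the scaling, most of all in BoRed-seq, where miR-21-5p itself fills most of the Ctrl counts. With factors from total counts, the BoRed-seq log2 enrichment was -1.57 for the 5p arm and -2.04 for the 3p arm, and the median of all tested miRNAs moved from -0.09 to 1.19. With totals that leave out both miR-21 arms, the values were -3.43 and -3.89 and the median -1.10. Relative to the median, the 5p arm stood at -2.58 with the reported scaling, -2.76 with total counts and -2.34 with totals without miR-21. In m7G-RIP-seq the 5p arm was at -3.34, -3.35 and -3.35 relative to the median under the same 3 scalings. Total-count scaling also moved the calls from 129 enriched and 109 depleted to 175 and 46 in BoRed-seq, and from 183 and 200 to 232 and 164 in m7G-RIP-seq. Both arms were called depleted under each scaling.

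**Figure D2:**
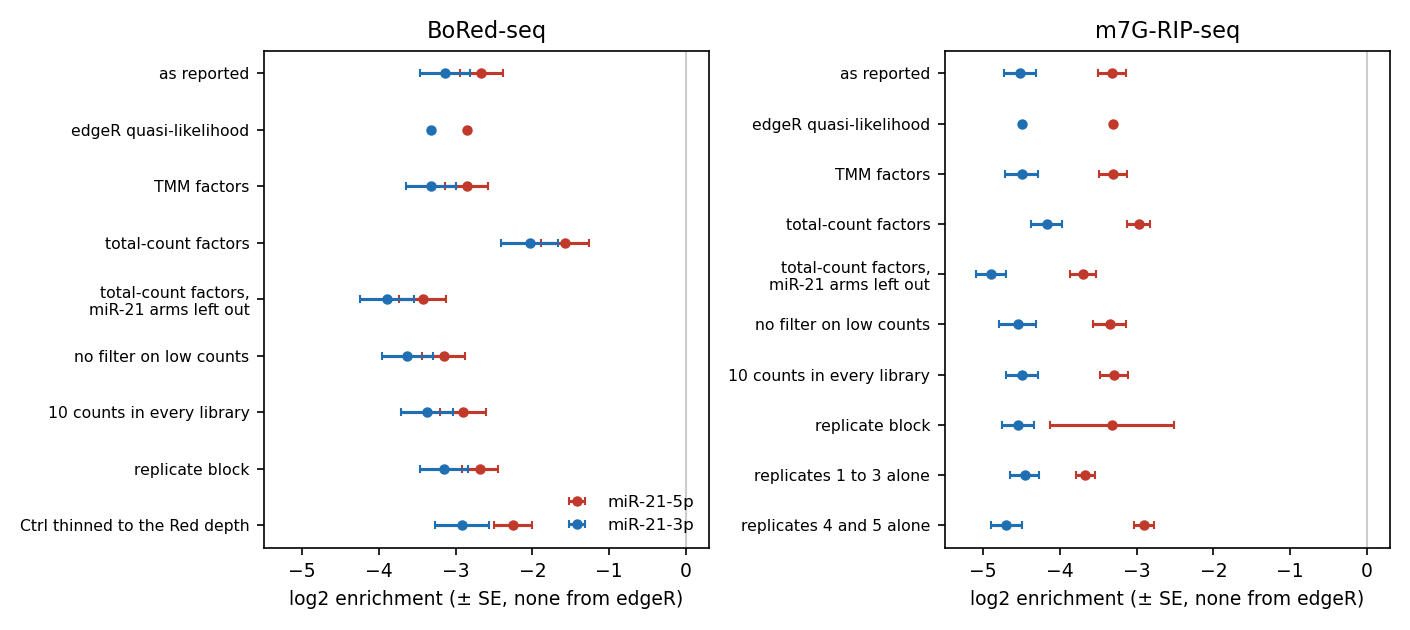
Log2 enrichment of miR-21-5p (red) and miR-21-3p (blue) under each way of fitting, with SE, for BoRed-seq (left) and m7G-RIP-seq (right). All points lie below 0, from -1.57 to -3.43 for the 5p arm in BoRed-seq.

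The arms were next compared between assays. The log2 enrichment of miR-21-5p was higher in BoRed-seq than in m7G-RIP-seq by 0.65 ± 0.34 (SE), which did not pass a two-sided z test adjusted over 384 miRNAs (adjusted p = 0.109 from the DESeq2 estimates). For miR-21-3p the difference was 1.38 ± 0.38 and passed (adjusted p = 0.00172 from the DESeq2 estimates). The passenger arm thus fell further in m7G-RIP-seq than in BoRed-seq, each against its own control, whereas for the 5p arm a difference was not resolved. Without Ctrl replicate 1 the 3p difference was 1.24 and no longer passed (adjusted p = 0.0656), and with total-count scaling the differences were 1.40 for 5p, which passed (adjusted p = 0.000218), and 2.14 for 3p. With an interaction term in 1 fit of all libraries they were 0.21 and 0.93, and against IP and Input replicates 4 and 5 only, the 5p difference was 0.23.

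**Figure D3:**
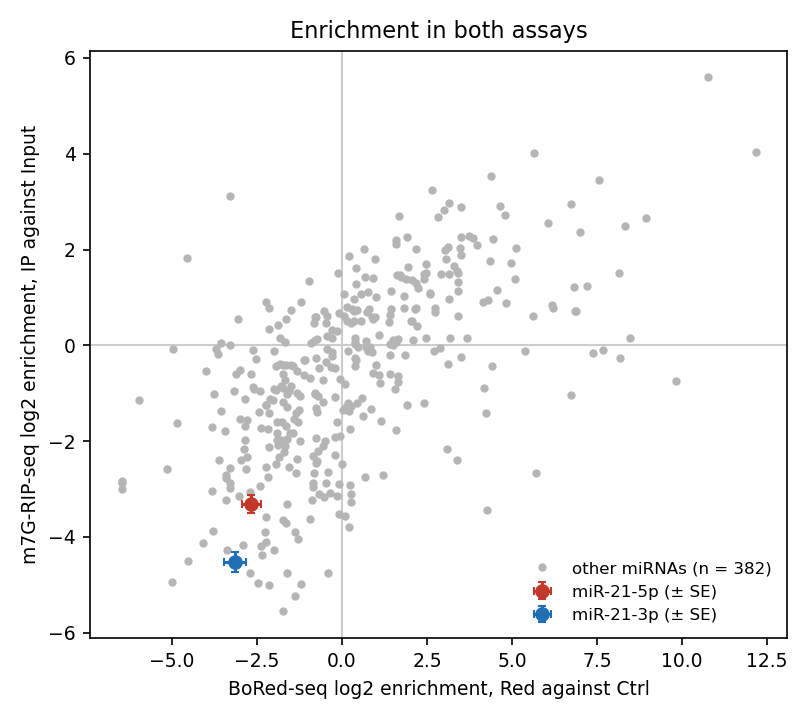
Log2 enrichment in BoRed-seq (x axis) against m7G-RIP-seq (y axis) for the miRNAs tested in both, with miR-21-5p in red and miR-21-3p in blue with SE. Both arms lie in the lower left, at -2.67 and -3.32 for the 5p arm and at -3.14 and -4.52 for the 3p arm, among other miRNAs depleted in both assays.

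The ratio of the arms needs no size factor, because both are counted in the same library. There were 898 and 936 reads of miR-21-5p for each read of miR-21-3p in Ctrl, and 1251 (954 to 1641) and 1276 (987 to 1650) in Red, where parentheses give 95% Wilson intervals. Both Red ratios were above both Ctrl ratios, 1.38 times in the geometric mean. With limma over the 100 hairpins that had both arms tested, the log2 change was 0.45 ± 0.35 (SE) and was not called (adjusted p = 0.395). The exact permutation test gave p = 0.333, the smallest possible. With 52 and 58 reads of the 3p arm in Red, the Wilson intervals there are wide. Both lie above both Ctrl ratios, though that of Red replicate 1 overlaps the interval of Ctrl replicate 2 (908 to 966).

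In m7G-RIP-seq the ratio was 1216, 1392, 1352, 1173 and 1227 in Input and 1780 (1496 to 2117), 2384, 3167 (2374 to 4224), 3814 and 4666 (3694 to 5895) in IP, for replicates 1 to 5. The lowest IP library was above the highest Input library, and the geometric mean was 2.36 times higher. The log2 change was 1.23 ± 0.29 (SE; limma over 155 hairpins, adjusted p = 0.0065; exact permutation test, p = 0.00794, the smallest possible). The IP libraries differed from each other by more than counting error, as the Wilson intervals of replicates 1 and 5 do not overlap. Within replicates 1 to 3 the change was 0.84 (limma, adjusted p = 0.0711) and was not called, and within replicates 4 and 5 it was 1.81 (limma, adjusted p = 0.0083). The difference between the sets, 0.96 ± 0.39 (SE), was not called (limma interaction, adjusted p = 0.202).

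**Figure D4:**
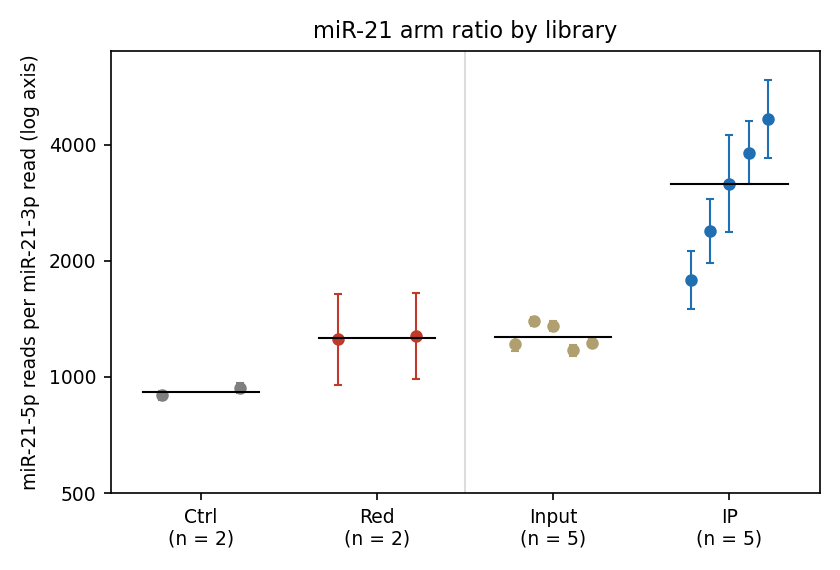
Reads of miR-21-5p per read of miR-21-3p in each library (log axis) with 95% Wilson intervals, and a line at each group mean. The points of a group are placed by replicate number, which gives no order. The ratio is 1173 to 1392 in Input and 1780 to 4666 in IP, and 898 to 936 in Ctrl against 1251 to 1276 in Red.

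A rise of the 5p arm over the 3p arm was called for 20.0% of the 100 hairpins in BoRed-seq and 29.7% of the 155 in m7G-RIP-seq, so a raised ratio was not rare among hairpins. The miR-21 change ranked 40th and 55th from the top. The hairpin is lopsided even among miRNAs, with the 3rd most unequal arms of 100 in Ctrl and the 5th of 155 in Input. Of the hairpins called by limma, the arm more abundant in the control group gained in 7 and lost in 24 in BoRed-seq. It gained in 31 and lost in 40 in m7G-RIP-seq. That arm was chosen from the control values that its change is measured against, so these counts are a description only. Both arms were called depleted in 12 of 100 hairpins in BoRed-seq and in 25 of 155 in m7G-RIP-seq, miR-21 included.

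The hairpins with ample counts whose ratio changed most in the same direction in both assays moved far more than miR-21. They were chosen for a call in both assays and the size of their change, so this follows from the choice. The log2 change of 5p over 3p for miR-193b was 6.75 with BoRed-seq and 4.82 with m7G-RIP-seq, 4.99 and 4.01 for miR-23b, and 4.85 and 2.26 for miR-365a. It was -4.34 and -4.92 for miR-30a, and -2.76 and -4.53 for miR-30e, members of a family often lost in tumours. The BoRed-seq calls of these 5 ended when either Ctrl replicate was left out, and those of miR-193b and miR-30e also without Red replicate 1 (limma, adjusted p of 0.0545 to 0.208 over the fits that lost a call), and the number of BoRed-seq hairpins called fell from 31 to 0 without Ctrl replicate 1, to 0 without Ctrl replicate 2 and to 18 without Red replicate 1.

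**Figure D5:**
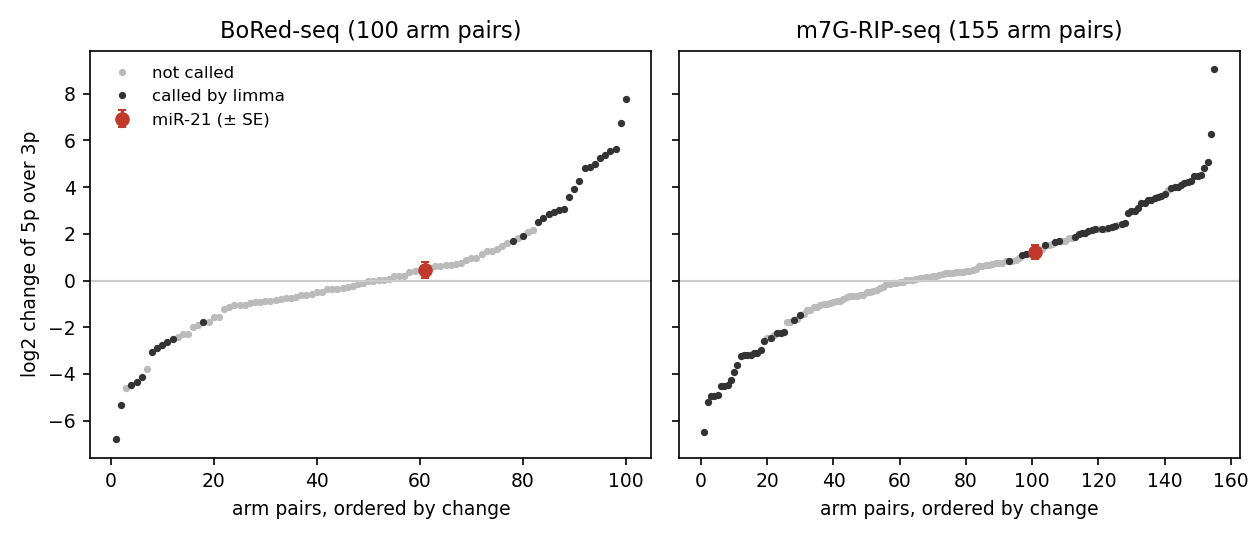
Log2 change of the 5p over the 3p arm for each hairpin, ordered from lowest to highest, in BoRed-seq (left, 100 hairpins) and m7G-RIP-seq (right, 155). Black points were called by limma and miR-21 is in red with its SE, at 0.45 and 1.23, 40th and 55th from the top.

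The miRNAs with profiles most like the arms over the 14 libraries were found by the root mean square difference of log2 normalized counts, centred on the control group of each assay, among 148 miRNAs whose mean reached 100 in both. This is a description with no test. Closest to miR-21-5p were miR-425-5p (0.38), miR-769-5p (0.42), miR-192-5p (0.49), miR-30a-5p (0.56) and miR-452-5p (0.61). Closest to miR-21-3p were miR-101-3p (0.43), miR-30e-5p (0.55), miR-30a-5p (0.56), miR-769-5p (0.59) and miR-582-3p (0.60). Both lists hold miR-30a-5p and miR-769-5p. The arms of miR-21 lay 0.81 apart, so miR-21-3p was 15th in likeness to the 5p arm and miR-21-5p was 8th in likeness to the 3p arm. These 8 other miRNAs were chosen for their likeness to depleted arms, so their own depletion follows from the choice. Their log2 enrichments ran from -2.27 for miR-769-5p to -4.52 for miR-582-3p in BoRed-seq and from -2.71 for miR-452-5p to -4.50 for miR-582-3p in m7G-RIP-seq.

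The guanosine content of miR-21-5p was set beside that of the tested miRNAs with a RefSeq sequence, 355 of 400 in BoRed-seq and 602 of 670 in m7G-RIP-seq. The median log2 enrichment was -0.72 over the 64 miRNAs with 5 guanosines in BoRed-seq, and 6 of them were below miR-21-5p. It was -0.65 over the 86 such miRNAs in m7G-RIP-seq, with 11 below miR-21-5p. miRNAs with more guanosines had a median of 0.60 (n = 186) in BoRed-seq and 0.61 (n = 349) in m7G-RIP-seq, and those with fewer had -0.88 (n = 105) and -0.67 (n = 167). Across miRNAs, log2 enrichment and the percentage of guanosine correlated with a Pearson r of 0.41 and a Spearman rho of 0.38 in BoRed-seq (n = 355) and 0.43 and 0.45 in m7G-RIP-seq (n = 602). These points share their libraries and family sequences and are not independent. The passenger arm had no RefSeq sequence to count and is not part of this comparison. Of miRNAs with 5 guanosines and no GG, 2 of 14 in BoRed-seq and 0 of 21 in m7G-RIP-seq lay below miR-21-5p, and their medians were -1.38 and 0.02.

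miR-590-5p, which shares the seed, was close to absent. It had 5 and 13 counts in Ctrl, 0 and 1 in Red, 12 to 33 in Input, 9 in IP replicate 2 and 0 in the other IP libraries. In Input, 135014 to 461589 reads of miR-21-5p were counted for each of its reads. It did not have the counts for a BoRed-seq test. In m7G-RIP-seq it was called depleted (adjusted p = 0.0431, DESeq2), but it passed the count filter only through its Input libraries. The call thus adds no support, and no fold is given at this depth.

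Beside 18 other miRNAs that are often raised in tumours, miR-21-5p was one of the more depleted. In BoRed-seq 17 of the 18 were tested, of which 3 were called enriched, 7 depleted and 7 neither, where 32.2% of all 400 were enriched and 27.2% depleted. Their median log2 enrichment was -0.67 against -0.09 over all 400. Of these, miR-19b-3p, of the miR-17-92 cluster, was below miR-21-5p at -2.93, from 4 and 34 counts in Red. Without Red replicate 1 it was at -2.08 and without Ctrl replicate 2 at -2.38, above miR-21-5p in the same fits (-2.75 and -2.64), and without Red replicate 2 at -4.79. The highest, miR-92a-3p of the same cluster, was at 1.44. In m7G-RIP-seq 4 were called enriched, 12 depleted and 2 neither, where 27.3% of all 670 were enriched and 29.9% depleted. Their median was -1.77 against 0.02 over all 670. There, 4 lay below miR-21-5p, and the highest was miR-182-5p at 1.51. The lowest, miR-19a-3p, was at -5.55, which was also below miR-21-3p. It had only 0 to 3 counts in IP against 86 to 152 in Input. miR-19a-3p thus passed the count filter through Input alone, and the size of its fall is uncertain. No member was called in opposite directions by the assays.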

How the data were processed

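The deposited values are raw read counts per mature miRNA, in a table for each assay. The authors trimmed adaptors with Trimmomatic, aligned 50-base reads to hg38 and counted mature miRNAs with featureCounts. The study's methods name STAR and the submitters' processing notes Bowtie2, and reads matching several loci were kept, so miRNAs with several hairpins or near-identical relatives share reads. 0 columns matched no sample. Enrichment was tested with the DESeq2 1.42.0 Wald test (R 4.3.3), the test in the study's methods, without covariates, over miRNAs with at least 10 counts in 2 (BoRed-seq) or 5 (m7G-RIP-seq) libraries. DESeq2 gave an adjusted p to 400 of 453 and 670 of 670. Arm ratios were fitted in limma 3.58.1 on log2 counts with 0.5 added, over hairpins with both arms past this filter. edgeR 4.0.16 was an alternative. The DESeq2, edgeR and limma arm ratio fits without a block or interaction term were tried on simulated counts, with the same dispersion for every miRNA. The block and interaction fits and the z test between assays were not. Exact permutation tests ran over libraries. Total counts per library, given with the results, limit the precision.

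The miR-21 arms, lists, naming rules and tests were chosen with earlier results of these data known. Named miRNAs are the 5 closest profiles per arm, those sharing a seed, the most abundant others, the 5 hairpins with the largest concordant ratio change and at least 100 normalized counts per arm in each assay, and the extremes of the tumour list. Replicate numbers come from the labels. In m7G-RIP-seq, deviations of same-numbered Input and IP libraries from their group means correlated in each of 5 pairs (0.179, 0.152, 0.146, 0.310 and 0.387). However, replicate 2 correlated best with number 1 and replicate 4 with number 5, each within its own set of replicates. These values thus do not settle the pairing, and the within-pair tests and block fits take the numbers as pairs without proof. BoRed-seq has only 2 pairs (0.110), which share a number only.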

Additional observations from a re-analysis of the deposited data

Results flagged for a closer look

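The depletion of miR-21-5p in m7G-RIP-seq differed between replicates 1 to 3 and replicates 4 and 5. Its log2 enrichment was -3.67 in the former and -2.90 in the latter, a difference of 0.76 ± 0.18 (SE; DESeq2 interaction term, adjusted p = 0.000246), and such a difference was called for 131 of 488 miRNAs. IP shares of miR-21-5p were 4.64% to 5.10% in replicates 1 to 3 and 6.17% and 6.27% in replicates 4 and 5, while Input shares were 40.4% to 46.3% and 38.0% to 41.0%. For miR-21-3p the log2 enrichments were -4.46 and -4.70, and the difference of -0.25 was not called (DESeq2 interaction term, adjusted p = 0.590). What sets these replicates apart is not given in the labels and was not tested.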

How the results depend on the processing

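The 62 alternatives to the 4 enrichments of the miR-21 arms left every one of them called depleted, from -1.57 to -3.43 (5p) and -2.04 to -3.89 (3p) in BoRed-seq and from -2.90 to -3.70 (5p) and -4.17 to -4.90 (3p) in m7G-RIP-seq. Of 169 alternatives to the comparisons, all kept the direction and 159 the side of the threshold. The m7G-RIP-seq arm ratio change fell to 0.84 in replicates 1 to 3 alone and was not called. The difference between assays for miR-21-5p passed with total-count factors (1.40) and with replicates 1 to 3 alone (1.00), and was lowest, not called, with replicates 4 and 5 alone (0.23) and as an interaction term of 1 fit (0.21). That for miR-21-3p ranged from 1.24 (without Ctrl replicate 1, not called) to 1.53 with each library left out in turn, and from 0.93 (interaction term) to 2.14 (total-count factors) otherwise. The m7G-RIP-seq share differences were -39.3 and -33.3 percentage points (5p) and -0.0314 and -0.0314 (3p) in replicates 1 to 3 and 4 and 5 alone, where the exact permutation test cannot go below 0.1 and 0.333. Exchanged within replicate pairs, as a block, those of all 5 replicates (-36.9 and -0.0314) gave an exact p of 0.0625, the smallest 5 pairs allow. With replicate as a block, m7G-RIP-seq enrichment was -3.32 (5p, SE 0.81) and -4.55 (3p), and the arm ratio change 1.23 (limma, adjusted p = 0.0208). In BoRed-seq the block gave -2.68, -3.15 and 0.45, and it changed no call of enrichment or arm ratio of miR-21 in either assay. Calls of depletion in BoRed-seq ranged from 46 (total-count factors) to 167 (edgeR, and totals without miR-21) against 109, with 71 under the filter on every library, 66 with Ctrl thinned and 62 without Ctrl replicate 2. In m7G-RIP-seq they were 116 under the filter on every library against 200, and that filter left 15 and 39 hairpins with a changed ratio against 31 and 71. The BoRed-seq log2 enrichment of miR-182-5p, -0.12 and not called, was 1.02 with total-count factors, 0.19 with Ctrl thinned to the Red depth and from -0.44 to 0.22 with each library left out (0.22 without Red replicate 1). Among other named miRNAs, miR-19a-3p was called depleted in BoRed-seq under 4 alternatives only. The causes were not tested. Depth limits the 3p arm most, at 52 and 58 reads in Red.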

Other observations

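The reference groups of the assays differed in miR-21, and each enrichment, and so the difference between assays, is taken against its own reference group. miR-21-5p made up 79.7% ± 1.03 of the counts in Ctrl (SD, n = 2) and 42.3% ± 3.57 in Input (SD, n = 5), and miR-21-3p 869 ± 14.7 and 332 ± 5.12 ppm. There were 917 ± 27.4 reads of miR-21-5p per read of miR-21-3p in Ctrl and 1272 ± 94.6 in Input. The ranges of the groups did not overlap in any of these measures. Ctrl RNA had passed through the probe and the beads and Input RNA had not, and the assays were made separately, so these cannot be told apart, and the difference was not tested.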
